A study of Mus musculus with 4 samples.

Results

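The 9 genes described here are the core G1 cyclins, their kinases and an activating phosphatase: the D-type cyclins Ccnd1, Ccnd2 and Ccnd3 with Cdk4 and Cdk6, and the E-type cyclins Ccne1 and Ccne2 with Cdk2 and Cdc25a. They were chosen by symbol, and every probe for them was read, which gave 21 of the 45281 probes on the array and 9 of the 12616 genes with a detected signal. Mouse embryonic fibroblasts (MEFs) of the mixed FVB;129 background carrying a floxed Rb gene were profiled on 4 Illumina whole-genome arrays, 1 per condition, with no replicate. On the parental array the cells received a solution without Cre and then medium without virus. On the Rb-deleted array they received TAT-Cre, a cell-permeable recombinase that removes the floxed Rb gene, and the same medium. On the other 2 arrays TAT-Cre was combined with a retrovirus for HA-tagged Rb, either wild-type (WT Rb-HA) or the phospho-mutant that Cdks cannot phosphorylate (dCDK Rb-HA). Cre solution and virus or medium were each given in 2 rounds of 1 h, 3 h apart. By the study's methods all 4 cultures were arrested by contact in early G1, released and given a sub-lethal dose of doxorubicin, a DNA-damaging drug, which the labels do not mention. No array carried an empty virus, so infection and the Rb construct cannot be told apart, and the labels do not say whether each culture came from a separate embryo.

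D-type cyclins pair with Cdk4 and Cdk6 early in G1 and phosphorylate Rb, whereas E-type cyclins pair with Cdk2 later in G1 and drive entry into S phase. Cdc25a removes the inhibitory phosphates from Cdk2. Active Rb binds E2F transcription factors and represses their targets, among which cyclin E is a classic case, while D-type cyclins are known mainly as targets of growth factor signals.

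The probes that carry the results are shown first, since each measured value is the brightness of one such 50-base sequence. Only the first 30 bases of each are printed. The E-type probes were the single ones for Ccne1 and Ccne2 and the 4 for Cdk2, each named by its position in the transcript.
Ccne1 probe at 1492: ttggaggtcaggagcccctgcagatgctgt
Ccne2 probe at 1103: gctgctgccgccttatgtcattttacctcc
Cdk2 probe at 689: ccgagcacctgaaattcttctgggctgcaa
Cdk2 probe at 1133: gggcttgcacgtcactctggtctgttcatc
Cdk2 probe at 1313: gtcttagcattcgccttttctcttgccagc
Cdk2 probe at 2226: gtcagtgtggatggatttgttgccatgtgc
Among the D-type cyclins, 2 pairs of probes read nearly the same stretch of message. The Ccnd1 pair shared 49 bases and the Ccnd2 pair 43, and capitals mark the shared part.
Ccnd1 probe at 3522: gGCCATAGACTGGTGGTGGGTCCACGGAAT
Ccnd1 probe at 3523: GCCATAGACTGGTGGTGGGTCCACGGAATC
Ccnd2 probe at 1783: gccagttGGACACAGGTGAACGGCTCCTAA
Ccnd2 probe at 1812: GGACACAGGTGAACGGCTCCTAAGTCTCAT
Such a pair is close to a repeated measurement within an array, and the paired log2 ratios below differed by at most 0.13 in size.

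In assembly GRCm38.p6 the 9 genes lie on 7 chromosomes. The D-type cyclins are at chr7:144929931-144939831 (Ccnd1), chr6:127125162-127152188 (Ccnd2) and chr17:47505051-47599689 (Ccnd3), and their kinases at chr10:127063535-127067288 (Cdk4) and chr5:3341004-3531008 (Cdk6). Ccne1 is at chr7:38097984-38107490, Ccne2 at chr4:11190433-11204779, Cdk2 at chr10:128697938-128705051 and Cdc25a at chr9:109875518-109893895.

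The arrays were alike in brightness, with a mean intensity of 336 to 346, 15950 to 16740 detected probes and a median of 44 beads per probe. A probe counts as detected where its detection p-value, the authors' comparison with control beads, is below 0.01. Of the 21 probes, 18 were detected on all 4 arrays, 2 on some and 1 (Ccnd2 at 800) on none. Rb1 itself read 543 on the parental array and 160 to 181 on the other 3 with its probe at 4421. Its log2 ratios to parental were -1.88 (Rb-deleted), -1.69 (WT Rb-HA) and -1.75 (dCDK Rb-HA), so this probe was low wherever Cre was given and did not separate the arrays with an Rb-HA virus from the one without. Whether either Rb-HA construct holds that stretch of the message, and where it lies relative to the floxed part, is not given in the sources used here. Fibroblast markers were detected on every array, 8 of 8, with a summed intensity of 55004 to 62513. Of these, Col3a1 lay below parental with log2 ratios of -0.73 (Rb-deleted), -0.60 (WT Rb-HA) and -0.98 (dCDK Rb-HA), and Pdgfrb, at 231 to 435, was lower with dCDK Rb-HA than with WT Rb-HA by -0.70. Leukocyte markers set the parental array apart: over the 6 of 8 that were detected, the summed intensity was 3786 on the parental array and 1252 to 1540 on the other 3, with Ptprc and Fcer1g undetected throughout. Epithelial markers summed to 267 to 316 over 4 of 5, and no endothelial marker of 5 was detected. Every ratio to parental below is taken against that array, and the part of the leukocyte message in it was not tested. In such a mixture fewer cells of a type and less RNA per cell cannot be told apart.

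Both E-type cyclins and Cdk2 read higher on the treated arrays than on the parental array, past 1.6-fold on some of them, while Cdc25a and the D-type genes stayed within 1.6-fold of it. On the Rb-deleted array 3 of the 9 genes were more than 1.6-fold (the study's filter) above parental, namely Ccne1, Ccne2 and Cdk2, against 2.14% of all 12616 genes, and none was below by as much, against 2.98%. With WT Rb-HA 1 of 9, Ccne1, was above (0.888% of all genes) and none below (2.46%). With dCDK Rb-HA 2 of 9, Ccne1 and Ccne2, were above (2.58%) and none below (3.3%). All 5 D-type genes were within 1.6-fold of parental on all 3 arrays. With 1 array per condition no test could be run. Errors given below are bead standard errors (SE), each the standard error of the mean over the beads of 1 probe within an array. They leave out variation between cultures and between arrays.

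**Figure D1:**
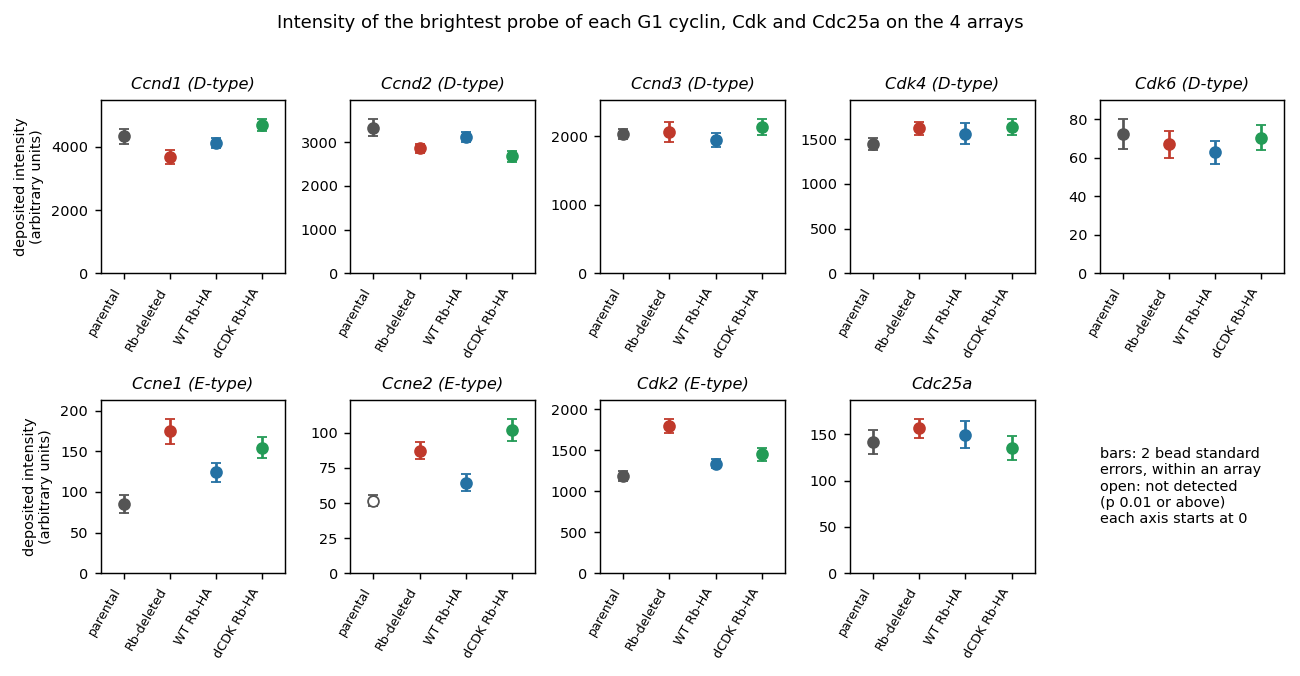
Deposited intensity in arbitrary units of the brightest probe of each gene on the 4 arrays, each vertical axis starting at 0. Bars span 2 bead SE on either side, and an open point marks a probe not detected on that array (Ccne2 on the parental array). Ccne1, Ccne2 and Cdk2 are lowest on the parental array and WT Rb-HA is the lowest of the other 3. Cdk4 has this order too, over a narrower range, and the other D-type genes and Cdc25a do not.

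Ccne1, cyclin E1, the main Cdk2 partner at the G1/S boundary, read 85.3 (parental), 174.7 (Rb-deleted), 124.1 (WT Rb-HA) and 154.6 (dCDK Rb-HA), with a bead SE of 5.34 to 7.84. The parental value was the lowest, WT Rb-HA was next, and the Rb-deleted and dCDK Rb-HA values differed by less than 2 bead SE. After background correction and normalization it exceeded parental by a log2 ratio of 1.31 (bead SE 0.14) in Rb-deleted MEFs, or 2.48-fold. It was 0.71 (0.15) with WT Rb-HA, or 1.63-fold, and 1.13 (0.14) with dCDK Rb-HA, or 2.19-fold. The WT Rb-HA value lay near the 1.6-fold line. Between the treated arrays, Ccne1 was lower with WT Rb-HA than in Rb-deleted MEFs by a log2 difference of -0.60 (0.11), and higher with dCDK Rb-HA than with WT Rb-HA by 0.43 (0.12).

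Ccne2, cyclin E2, a second Cdk2 partner, had 1 probe, which read 51.8 on the parental array with a detection p-value of 0.031 and was thus not detected there. It read 87.4 on the Rb-deleted array, 64.5 with WT Rb-HA and 102.3 with dCDK Rb-HA, with a bead SE of 1.80 to 3.93. The 4 arrays were in the order parental, WT Rb-HA, Rb-deleted, dCDK Rb-HA, and each neighbour in that order differed by more than 2 bead SE. The deposited readings, background included, were 1.69, 1.24 and 1.98 times the parental reading on the Rb-deleted, WT Rb-HA and dCDK Rb-HA arrays. After background correction, and against the lowest normalized value of a detected probe on the parental array, Ccne2 was at least 1.96-fold, 1.19-fold and 2.41-fold higher in the same order. These folds hold for the background offset of 16 only and are no floor under other settings, since an offset of 50 gave fitted log2 ratios of 0.67, 0.24 and 0.87. All 3 treated arrays detected it, and there it was lower with WT Rb-HA than in Rb-deleted MEFs by a log2 difference of -0.72 (0.13), and higher with dCDK Rb-HA than with WT Rb-HA by 1.02 (0.13). Against Rb-deleted MEFs the dCDK Rb-HA array was higher by 0.30 (0.10).

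Ccne2 was the 1 gene of the 9 past 1.6-fold between dCDK Rb-HA and WT Rb-HA, where 0.84% of all genes were higher and 1.01% lower with dCDK Rb-HA by that much. That call depended on the background step. The Ccne2 difference was 0.63 with an offset of 50, under the 1.6-fold line of 0.68, and 0.71 without background correction. Its deposited reading with dCDK Rb-HA was 1.59 times that with WT Rb-HA. None of the 9 was lower by as much. This comparison does not subtract the parental array, though all 4 arrays were normalized together. The leukocyte markers had a median log2 difference of 0.07 in it, from -0.25 (0.17) for Tyrobp to 0.29 (0.05) for Laptm5. Their bearing on the Ccne2 difference was not tested.

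Cdk2, the kinase activated by E-type cyclins, was measured by 4 probes that do not overlap. Its brightest, at 2226, read 1183 (parental), 1801 (Rb-deleted), 1335 (WT Rb-HA) and 1452 (dCDK Rb-HA), with a bead SE of 27.5 to 43.4. Ranked by level, all neighbours were more than 2 bead SE apart. In Rb-deleted MEFs the log2 ratio was 0.68 (0.06), which lay on the 1.6-fold line of 0.68, then 0.25 (0.06) with WT Rb-HA and 0.40 (0.06) with dCDK Rb-HA. Counting Cdk2 among the genes past 1.6-fold therefore turned on a ratio of 0.6784 at that 1 probe against a line of 0.6781. Cdk2 no longer passed without background correction, with an offset of 50, with median scaling or without normalization between arrays.

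The other 3 Cdk2 probes were dimmer and their ratios larger. The probe at 1133 read 224.7, 349.5, 287.1 and 299.9 on the parental, Rb-deleted, WT Rb-HA and dCDK Rb-HA arrays, and the probe at 1313 read 122.6, 206.3, 153.6 and 194.5. At 689 the readings were 70.4, 107.9, 109.1 and 127.4. All 4 probes were higher than parental on all 3 treated arrays. In Rb-deleted MEFs all 4 passed 1.6-fold, with log2 ratios of 0.68 to 0.90. With WT Rb-HA 1 of 4 passed (0.25 to 0.87) and with dCDK Rb-HA 2 of 4 (0.40 to 1.19). The probe at 689 departed from the rest in that its WT Rb-HA ratio of 0.87 (0.15) equalled its Rb-deleted ratio of 0.88 (0.13) within error, and its dCDK Rb-HA ratio of 1.19 (0.13) was the highest of the 12 Cdk2 ratios.

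Cdc25a, the phosphatase that activates Cdk2, did not share the pattern. Its brighter probe, at 2271, read 142.1 (parental), 156.5 (Rb-deleted), 149.8 (WT Rb-HA) and 135.2 (dCDK Rb-HA). Ranked by level, neighbouring values all lay within 2 bead SE of each other. The log2 ratios were 0.19 (0.10), 0.11 (0.12) and -0.04 (0.11). The second probe, at 2176, read 60.2, 61.2, 59.5 and 54.7, was undetected with dCDK Rb-HA, and gave log2 ratios of 0.07 (0.20) and -0.08 (0.18) on the other 2 treated arrays.

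**Figure D2:**
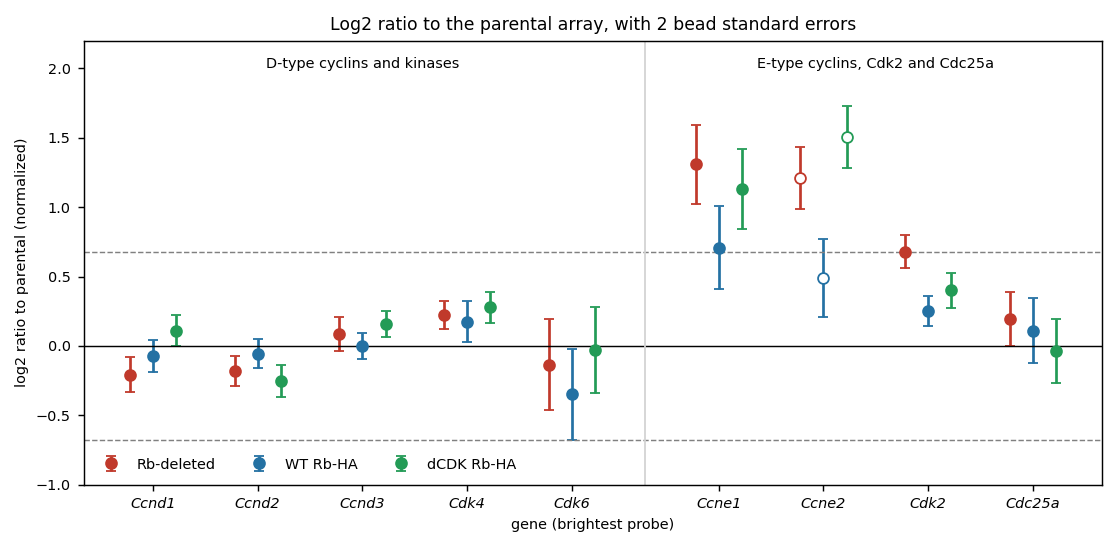
Normalized log2 ratio of each treated array to the parental array for the brightest probe of each gene, with bars of 2 bead SE and dashed lines at 1.6-fold in either direction. Open points mark Ccne2, whose parental signal was not detected, so its plotted value is no bound. The D-type genes lie between -0.35 and 0.28, while Ccne1 lies at 0.71 to 1.31.

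Ccnd1, cyclin D1, a growth factor-responsive partner of Cdk4 and Cdk6, read 4325 (parental), 3671 (Rb-deleted), 4119 (WT Rb-HA) and 4687 (dCDK Rb-HA) at its brightest probe, 3522. The log2 ratios to parental were -0.21 (0.06), -0.07 (0.06) and 0.11 (0.06). Rb-deleted MEFs were lowest and dCDK Rb-HA MEFs highest, and the difference between these, 0.32 (0.05), was several bead SE but well inside 1.6-fold. The overlapping probe at 3523 read 3133, 2752, 3144 and 3292, with ratios of -0.13, 0.06 and 0.12. The remaining probe, at 2463, read 1099, 925, 892 and 1084, with ratios of -0.18, -0.23 and 0.10. All 3 probes were thus below parental in Rb-deleted MEFs and above it with dCDK Rb-HA, and they split 2 to 1 with WT Rb-HA.

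Ccnd2, cyclin D2, read 3334 (parental), 2858 (Rb-deleted), 3117 (WT Rb-HA) and 2674 (dCDK Rb-HA) at the probe at 1812. The log2 ratios were -0.18 (0.05), -0.06 (0.05) and -0.25 (0.06). Unlike Ccnd1, Ccnd2 was lower with dCDK Rb-HA than with WT Rb-HA, by a log2 difference of -0.20. Its overlapping probe at 1783 read 2216, 1744, 1989 and 1762, with ratios of -0.30, -0.09 and -0.25. The dimmer probe at 3295 read 97.1, 80.1, 103.5 and 94.8, with ratios of -0.34, 0.11 and -0.02. The 3 detected probes were all below parental in Rb-deleted and dCDK Rb-HA MEFs. The fourth, at 800, read at most 45.5 and was at background on all 4 arrays.

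Ccnd3, cyclin D3, differed little at its brightest probe, 1801, which read 2032 (parental), 2057 (Rb-deleted), 1943 (WT Rb-HA) and 2138 (dCDK Rb-HA), with log2 ratios of 0.08 (0.06), -0.00 (0.05) and 0.15 (0.05). A dimmer probe nearer the start of the transcript, at 385, read 135.2, 128.6, 135.7 and 183.5. Only the dCDK Rb-HA reading stood off there, with a log2 ratio to parental of 0.58 (0.13), a difference of 0.64 (0.12) from Rb-deleted and of 0.56 (0.12) from WT Rb-HA. The probe at 1757, close to background, read 57.7, 61.6, 71.3 and 71.5. Its ratios were 0.19 (0.16), 0.45 (0.19) and 0.51 (0.18), so the Ccnd3 probes gave ratios from 0.15 to 0.58 for the same dCDK Rb-HA array, all within 1.6-fold.

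Cdk4, the main kinase partner of D-type cyclins in fibroblasts, read 1445 (parental), 1621 (Rb-deleted), 1561 (WT Rb-HA) and 1637 (dCDK Rb-HA) at the probe at 446. The log2 ratios were 0.22 (0.05), 0.17 (0.07) and 0.28 (0.06). The dimmer probe at 1207 read 259.7, 355.4, 323.0 and 302.3, with ratios of 0.54 (0.06), 0.40 (0.06) and 0.32 (0.07). Both probes were lowest on the parental array, though they ordered the treated arrays differently. Cdk4 was hence the D-type gene that lay above parental on every treated array with every probe, by less than 1.6-fold.

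Cdk6, the second D-type partner kinase, was dim. Its probe read 72.3 (parental), 67.0 (Rb-deleted), 62.9 (WT Rb-HA) and 70.5 (dCDK Rb-HA). Ranked by level, neighbouring values lay within 2 bead SE, and the log2 ratios were -0.13 (0.16), -0.35 (0.16) and -0.03 (0.15). The lowest reading, with WT Rb-HA, was thus just over 2 bead SE from the highest, the parental one.

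**Figure D3:**
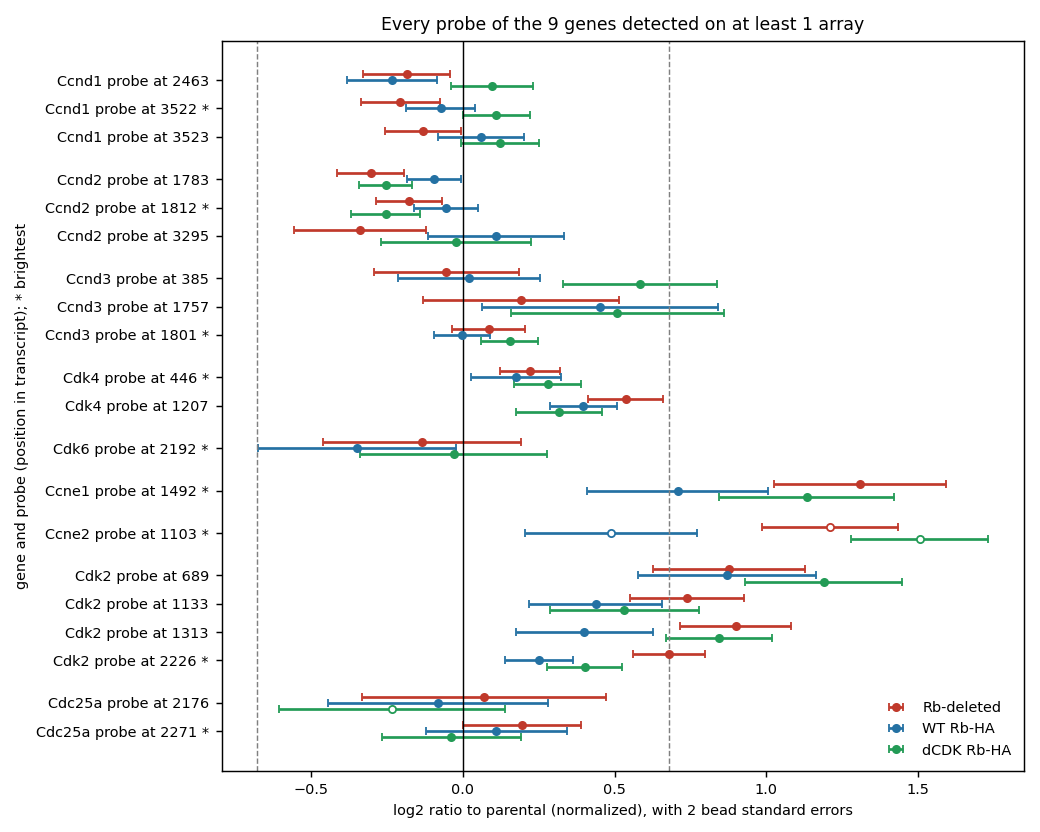
Normalized log2 ratio to parental for each of the 20 probes detected on at least 1 array, grouped by gene and labelled by position in the transcript, with bars of 2 bead SE, dashed lines at 1.6-fold and a star on the brightest probe of each gene. Open points mark ratios in which the probe was not detected on 1 of the 2 arrays. All 4 Cdk2 probes lie right of 0, and no probe of a D-type gene reaches the dashed lines.

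Set side by side, the 2 E-type cyclins exceeded the 3 D-type cyclins in their mean log2 ratio to parental by 1.36 (0.10) in Rb-deleted MEFs, 0.64 (0.11) with WT Rb-HA and 1.32 (0.10) with dCDK Rb-HA. With Ccne2 taken against the parental detection limit the differences were 1.24, 0.52 and 1.2, and with an offset of 50 they were 0.92, 0.41 and 0.84. The gap was of like size in Rb-deleted and dCDK Rb-HA MEFs, whose own difference of -0.04 (0.08) was within the bead error. With WT Rb-HA the gap differed from that in Rb-deleted MEFs by -0.72 (0.09). The value of -0.04 is a net of unlike shifts in single cyclins. For dCDK Rb-HA against Rb-deleted MEFs these were -0.18 (0.11) for Ccne1 and 0.30 (0.10) for Ccne2. For Ccnd1, Ccnd2 and Ccnd3 they were 0.32 (0.05), -0.08 (0.04) and 0.07 (0.07). Compared directly, after normalization of all 4 arrays together, dCDK Rb-HA exceeded WT Rb-HA by 0.67 (0.09) in the E-type minus D-type difference.

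Among the kinases, Cdk2 exceeded the mean of Cdk4 and Cdk6 by 0.64 (0.10) in Rb-deleted MEFs, 0.34 (0.11) with WT Rb-HA and 0.28 (0.10) with dCDK Rb-HA. Here the dCDK Rb-HA and WT Rb-HA values lay within the bead error of each other, with a difference of -0.06 (0.10). For the cyclins the same difference was several times its bead SE. The D-type kinase mean includes the 1 dim Cdk6 probe, whose ratio to parental with WT Rb-HA was -0.35 (0.16). Against Cdk4 alone the kinases lay closer together on the arrays with virus. Cdk2 and Cdk4 stood at 0.68 and 0.22 in Rb-deleted MEFs, 0.25 and 0.17 with WT Rb-HA, and 0.40 and 0.28 with dCDK Rb-HA. The brightest Cdk2 probe itself was higher with dCDK Rb-HA than with WT Rb-HA by 0.15 (0.05). The mean over all detected probes raised the dCDK Rb-HA kinase difference to 0.61 (0.10), but it raised WT Rb-HA as well. In that setting the ratios to parental with WT Rb-HA were 0.49 for Cdk2 and 0.29 for Cdk4. With dCDK Rb-HA they were 0.74 and 0.30.

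As medians, the 4 genes of the E-type side, Cdc25a included, stood at log2 ratios of 0.94, 0.37 and 0.77 in Rb-deleted, WT Rb-HA and dCDK Rb-HA MEFs, or 0.83, 0.25 and 0.77 with Ccne2 against the parental detection limit. The 5 D-type genes stood at -0.13, -0.06 and 0.11, and all 12616 genes at 0.02, 0.01 and -0.01. The 3 sets of ratios share 1 parental array, so a high or low reading on it moves all 3 together.

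The other genes of the pathway comprised Cdk-activating kinase subunits, Cdk inhibitors, inhibitory kinases, other Cdc25 phosphatases, parts of the ubiquitin ligases that degrade cyclins and inhibitors, and the later cyclins with Cdk1. Of 27 listed genes 21 were analysed, and the other 6, Ccna2 and Ccnb2 among them, had no detected probe. In Rb-deleted MEFs 3 of 21 were more than 1.6-fold above parental and none below, with a median log2 ratio of 0.16. With WT Rb-HA none of 21 passed in either direction, with a median of 0.13. With dCDK Rb-HA 1 was above and 1 below, with a median of 0.13. Of all 12616 genes, 2.14% (Rb-deleted), 0.888% (WT Rb-HA) and 2.58% (dCDK Rb-HA) were above by as much. Below by as much were 2.98%, 2.46% and 3.3%.

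Cdkn1c, which encodes the Cip/Kip inhibitor p57 of G1 Cdks, read 4613 (parental), 8789 (Rb-deleted), 7049 (WT Rb-HA) and 2504 (dCDK Rb-HA). Its log2 ratios to parental were 0.95 (0.03), 0.63 (0.04) and -0.85 (0.04), so it was the gene of this list that lay past 1.6-fold in opposite directions on 2 arrays. dCDK Rb-HA MEFs were below WT Rb-HA MEFs by -1.48 (0.05).

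Skp2, the ubiquitin ligase subunit that targets the inhibitor p27, read 531 (parental), 817.5 (Rb-deleted), 557 (WT Rb-HA) and 568 (dCDK Rb-HA), with a log2 ratio of 0.69 (0.08) in Rb-deleted MEFs. Cdk1 (Cdc2a on this array), the mitotic kinase, read 352, 481, 410 and 543, with log2 ratios of 0.52 (0.06), 0.28 (0.07) and 0.76 (0.07). Skp2 was thus highest in Rb-deleted MEFs and Cdk1 in dCDK Rb-HA MEFs. Wee1, which places the inhibitory phosphate that Cdc25 phosphatases remove, read 53.8 on the parental array, where it was undetected, and 74.8 in Rb-deleted MEFs. Against the parental detection limit Wee1 was at least 1.57-fold higher there, a bound short of 1.6-fold. Its fitted log2 ratio of 0.79 counted as past 1.6-fold but did not do so without background correction or with an offset of 50, and the same held for Skp2.

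As a yardstick of G1/S genes, the 6 genes of the MCM replicative helicase were set beside the members. All 6 were past 1.6-fold above parental in Rb-deleted MEFs, with log2 ratios of 1.04 to 2.32 and a median of 1.96. With WT Rb-HA 5 of 6 passed (0.21 to 1.54, median 0.83), and with dCDK Rb-HA 5 of 6 (0.62 to 1.80, median 1.31). The shares of all genes above by as much were 2.14%, 0.888% and 2.58% in the same order. Ccne1 and the brightest Cdk2 probe had the same order of the 4 arrays as these medians, from Rb-deleted down through dCDK Rb-HA and WT Rb-HA to parental. Ccne2 was highest with dCDK Rb-HA, and so was the Cdk2 probe at 689. For Ccne1 and the Cdk2 probes at 1133 and 1313, Rb-deleted and dCDK Rb-HA lay within 2 bead SE of each other.

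**Figure D4:**
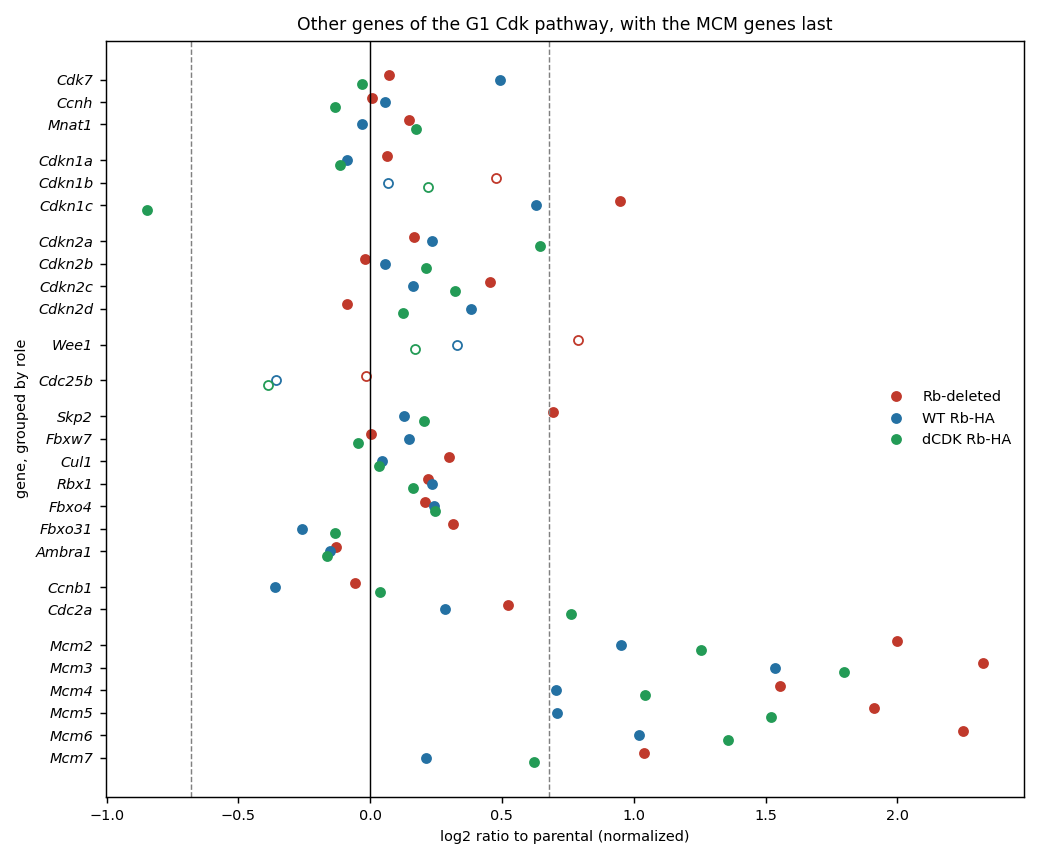
Normalized log2 ratio to parental of 21 other genes of the G1 Cdk pathway, grouped by role, and of the 6 MCM genes at the bottom, with dashed lines at 1.6-fold and open points for genes not detected on all 4 arrays. Cdkn1c is the one gene left of the lower line, with dCDK Rb-HA at -0.85, and the 6 MCM genes all lie right of 0, from 0.21 (Mcm7 with WT Rb-HA) to 2.32 (Mcm3 in Rb-deleted MEFs).

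The genes nearest to a member in their 3 log2 ratios were sought among 10829 genes detected on all 4 arrays. Nearest to Ccne1 were Cdt1 and Tcf19 (a distance of 0.14 each on the log2 scale), Nasp (0.14), Chaf1a (0.21) and Rpa2 (0.21). Cdt1 licenses replication origins, Chaf1a and Nasp handle histones, and Rpa2 binds single-stranded DNA. Nearest to Cdk2 were 2610207P08Rik, Rfc3, which is a subunit of the clamp loader, Gdf1, 2810432D09Rik and Dlk2, at 0.04 to 0.09. Nearest to Cdk6 were LOC100040413, Fxyd5, Dlat, Epb4.1l3 and Rnf14, at 0.04 to 0.06, though its own ratios lay within about 2 bead SE of 0. Likeness over 3 ratios that share 1 array is a description.

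The promoters were searched for an E2F motif, since Rb acts through E2F. The motif was TTTCCCGC, TTTCGCGC, TTTGCCGC or TTTGGCGC on either strand, in the 250 bases before the start in RefSeq's GRCm38.p6 promoter table, which listed 6 of the 9 genes in 7 windows. Ccnd1, Ccnd2 and Ccne2 are not in the table. The start in that table is not always the first base of the gene span given above. The Cdk6 window, chr5:3343643-3343892, lay inside the Cdk6 span. The Cdc25a window, chr9:109875329-109875578, reached into the Cdc25a span. The motif was in the windows of Cdk2 and Cdc25a and in neither window of Ccnd3 nor in those of Cdk4, Cdk6 and Ccne1, beside 1.86% of 32851 promoters of that length. A shorter form without the first T, which every longer match also contains, was in the same 2 genes and in 7.89% of all promoters. The stretches that hold the longer motif are shown with every match of either form in capitals, read along the strand of the gene.
Cdk2, minus strand, chr10:128705144-128705233: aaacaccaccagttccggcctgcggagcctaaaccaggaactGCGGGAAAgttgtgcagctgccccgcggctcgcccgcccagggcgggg
Cdc25a, plus strand, chr9:109875471-109875560: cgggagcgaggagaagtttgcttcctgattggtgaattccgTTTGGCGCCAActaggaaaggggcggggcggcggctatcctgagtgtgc
In Cdk2 the longer match read on the opposite strand as TTTCCCGC and began 140 bases before the start. A separate match of the shorter form, also on the opposite strand, began 10 bases before the start, outside the stretch shown. In Cdc25a the longer match read forward as TTTGGCGC and began 67 bases before the start listed in the promoter table. A shorter match on the other strand overlapped it. Of the 2 genes, Cdk2 lay above parental with every probe and Cdc25a did not, and Ccne1, which had the highest ratio in Rb-deleted MEFs among the members detected on both arrays, had no match in its window. A match is a run of letters, not a measured binding site.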

How the data were processed

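For all 4 arrays the authors deposited probe intensity values, each a mean over beads on a linear scale and not normalized between arrays. The deposited table also holds a detection p-value, a bead standard error and a bead number. The software that summarized the beads is not given in the sources used here. Symbols turned into dates were found on 44 probes, and 34 were restored by Entrez number from RefSeq.

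From these values, background was corrected with limma 3.58.1 in R 4.3.3 (normexp, background inferred from detection p-values, offset 16), followed by quantile normalization and log2. Genes with no probe under a detection p-value of 0.01 on any array were dropped. For the rest the brightest detected probe stood for its gene. Bead standard errors were carried through each array's own normalization curve and added in quadrature for a ratio. They cover measurement within an array, and the number of arrays limits the precision. No p-value was computed, with 1 array per condition. Where 1 array did not detect a probe, the fold was taken against the higher of its own value and the lowest detected value there, on the normalized scale with offset 16, and is a bound on that scale only. The script was tested on simulated data. Tables were made in Python 3.11.15 (pandas 2.3.3, numpy 2.4.6) and figures in matplotlib 3.10.9.

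The members, the pathway and marker lists and the alternatives were chosen with earlier results of these data known. Named genes were all probes of the members, Rb1, up to 4 pathway genes past 1.6-fold, and the 5 nearest genes of the 3 members detected on all 4 arrays with the widest range. Alternatives changed the background correction, its offset (50 or 1), the normalization, the detection filter, the probes per gene and the fold threshold (1.5 or 2).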

Additional observations from a re-analysis of the deposited data

How the results depend on the processing

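The E-type minus D-type difference of the cyclins kept its sign under all 8 alternatives, but its size followed the background step. Without background correction it was 1.01 in Rb-deleted and 0.94 in dCDK Rb-HA MEFs. With an offset of 50 it was 0.92, 0.41 and 0.84 in Rb-deleted, WT Rb-HA and dCDK Rb-HA MEFs, and with an offset of 1 it was 1.85, 0.94 and 1.84. Averaging all detected probes moved the kinase difference with dCDK Rb-HA to 0.61, and it raised the Cdk2 ratio to parental with WT Rb-HA too, to 0.49. Members above parental in Rb-deleted MEFs fell from 3 to 2 without background correction, with median scaling, without normalization between arrays or at 2-fold (Cdk2 lost) and with detection required on all 4 arrays (Ccne2 lost), and to 1 (Ccne1) with an offset of 50. With WT Rb-HA they numbered 0 without background correction, with an offset of 50 or at 2-fold, and 2 (Ccne1 and Ccne2) with an offset of 1. With dCDK Rb-HA they numbered 1 (Ccne1) when detection on all 4 arrays was required and 3 (with Cdk2) over all detected probes. No member passed below parental under any alternative.

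Pathway genes above parental in Rb-deleted MEFs numbered 1 (Cdkn1c) without background correction or with an offset of 50, and 0 at 2-fold. With WT Rb-HA an offset of 1 gave 1 above (Cdk7) and 1 below (Cdc25b), and 1.5-fold gave 1 above (Cdkn1c). With dCDK Rb-HA the number above was 0 without normalization between arrays or at 2-fold and 2 (Cdkn2a and Cdc2a) over all detected probes or at 1.5-fold. The number below there was 2 (Cdkn1c and Cdc25b) with an offset of 1 and 0 at 2-fold. The offset acts on dim probes by construction, and the cause of the other shifts was not tested.

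Of the single-gene values, 399 moved by at most 2 bead standard errors and 27 by more, and no value beyond 2 bead standard errors from 0 changed sign. Smaller ones did, among them dCDK Rb-HA against Rb-deleted over all detected probes, from -0.08 to 0.10 for Ccnd2 and from 0.06 to -0.08 for Cdk4. Signal over background limits Ccne1, Ccne2, Cdk6 and the dimmer probes of Cdk2 and Ccnd3. Leaving out an array would leave its condition with none, so no such setting was run. No paired analysis was possible because there is 1 array per condition.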
